A study of Mus musculus with 9 samples.

Results

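The tumor necrosis factor (TNF) superfamily was examined in libraries labelled bone marrow from aged and young mice, across its ligands and receptors. Members were the genes of the deposited table with the symbol Tnf, Lta or Ltb, or a symbol of Tnfsf or Tnfrsf followed by a number. Tnfsf11 and its receptors Tnfrsf11a and Tnfrsf11b were left out. This gave 32 of 56980 genes, of which 31 code for proteins and 1, Tnfsf13os, is an antisense RNA of the Tnfsf13 locus. Of the 32, 29 passed the filter on low counts, and Lta, Tnfsf4 and Tnfsf18 did not. The libraries came from 5 aged mice, 20 months old, and 4 young mice, 3 months old, each a separate biological replicate by its label. All were labelled wild type, with no treatment other than age, and the design gave the strain as C57BL/6 and the sex as female. The labelled tissue was bone marrow, whereas the extraction protocol named homogenized trabecular bone. Aged bone below stands for this material, whichever of these it was.

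Ligands of this superfamily are trimeric proteins, made mostly on the cell surface, and their receptors carry cysteine-rich repeats outside the cell. Inside the cell the receptors bind TRAF adaptors, which lead to NF-kappa-B, or, through a death domain, adaptors that lead to caspases. In bone marrow the family is best known for keeping plasma cells and B cells alive, for costimulating T cells, and for the inflammatory signals of TNF itself. In the domain annotation of the deposited table, 12 members carried the TNF ligand domain, 13 the cysteine-rich receptor repeat and 4 a death domain, namely Tnfrsf1a, Tnfrsf10b, Tnfrsf21 and Tnfrsf25.

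The libraries held 19804883 to 23548594 estimated counts in the aged group and 20120991 to 23336827 in the young group. Xist, which female cells transcribe from one X chromosome, had 7909 to 21724 counts in aged 1 to 4, and 9 or fewer in aged 5 and the young libraries. The Y-linked gene Ddx3y had 0 counts in aged 1 to 4, 1640 in aged 5 and 888 to 1721 in the young libraries, so that 5 libraries went against the stated female sex. Age and sex cannot be told apart between aged 1 to 4 and the young libraries, and only aged 5 and the young libraries were alike in this respect. Aged 3, aged 4 and young 4 stood apart from the other 6 libraries, with 6.16% to 7.34% of their counts from ribosomal protein genes, against 3.19% to 3.45% in the 6. Results are therefore given over all libraries, with this library set as a term of the fit, and within the 6 libraries. Marrow and bone were both present: neutrophil markers summed to 18805 to 79466 CPM (a count relative to the library size after TMM scaling, which allows for a few very abundant genes) in aged and 26204 to 58184 CPM in young libraries, and osteoblast and osteocyte markers to 373 to 2570 CPM in aged and 2411 to 6184 CPM in young libraries. In bulk RNA, a change in the number of cells of a type and a change in RNA per cell cannot be told apart.

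Sequence before the start is shown for 3 members. Tnf and Tnfrsf9 were the only members whose aged and young libraries did not overlap in CPM. Tnfrsf25 was the death domain receptor with the highest fitted fold. Each line gives the 250 bases before a RefSeq start, 5′ to 3′ on the strand of the gene, in build GRCm38.p6. They lie at chr17:35202008-35202257 (minus strand, Tnf), chr4:150927749-150927998 (plus strand, Tnfrsf9, the downstream of its 2 listed starts) and chr4:152116093-152116342 (plus strand, Tnfrsf25, the downstream of its 2 listed starts). Capitals mark matches to the kappa-B consensus of NF-kappa-B, searched on both strands, where overlapping matches form 1 run.
Tnf: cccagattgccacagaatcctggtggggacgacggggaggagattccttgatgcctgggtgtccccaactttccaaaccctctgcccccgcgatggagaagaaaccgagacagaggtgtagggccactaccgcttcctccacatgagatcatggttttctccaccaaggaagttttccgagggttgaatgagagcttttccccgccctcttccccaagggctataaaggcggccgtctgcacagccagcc
Tnfrsf9: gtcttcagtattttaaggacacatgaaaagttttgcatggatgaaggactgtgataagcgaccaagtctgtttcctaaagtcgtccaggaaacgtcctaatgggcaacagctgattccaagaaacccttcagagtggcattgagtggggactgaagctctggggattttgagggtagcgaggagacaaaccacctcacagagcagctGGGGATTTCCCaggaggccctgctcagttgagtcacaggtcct
Tnfrsf25: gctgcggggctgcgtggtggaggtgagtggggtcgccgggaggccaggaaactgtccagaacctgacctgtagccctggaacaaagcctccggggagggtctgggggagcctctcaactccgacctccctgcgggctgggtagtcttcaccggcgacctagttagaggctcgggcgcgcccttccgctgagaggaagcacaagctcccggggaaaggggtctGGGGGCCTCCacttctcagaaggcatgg
The Tnfrsf9 window held 3 overlapping matches, beginning 43 and 42 bases before the start, and the Tnfrsf25 window 1 match, beginning 28 bases before it. The other listed start of each of these genes had 0 matches. For both genes the window shown is thus the one with a match, and which start these samples used was not tested. No match lay in the Tnf window, which says only that the consensus letters are not within these bases. The 25 members with a RefSeq entry had 29 windows, of which 4 held a match (Ltb, Tnfrsf8, Tnfrsf9 and Tnfrsf25), while 7.25% of all 32841 promoter windows of this length held one. A TATAAA motif, searched on both strands, was in 5 of these 29 windows, that of Tnf among them, and in 12.4% of all windows.

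Across the family, levels tended to be higher in aged bone, and no member passed the test. Of 29 tested members, 24 had a log2 fold change (aged over young) above 0 and 5 below 0, while 53.5% of all 16576 tested genes were above 0. Their median log2 fold change was 0.50, against 0.03 over all tested genes. The edgeR quasi-likelihood test with Benjamini-Hochberg adjustment called 0 of the 29 members and 0% of all genes at an adjusted p under 0.05, and the smallest adjusted p of a member was 0.297. At an unadjusted p under 0.05 there were 7 members higher in aged bone and 0 lower, against 4.15% and 4.64% of all genes. DESeq2 called 1 of 31 members, Tnfrsf9, against 1.57% of its genes, and limma-voom called 0 members and 0% of genes. In the authors' deposited table, 1 member, again Tnfrsf9, had an adjusted p under 0.05 (0.00786), against 1.66% of the genes tested here.

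**Figure D1:**
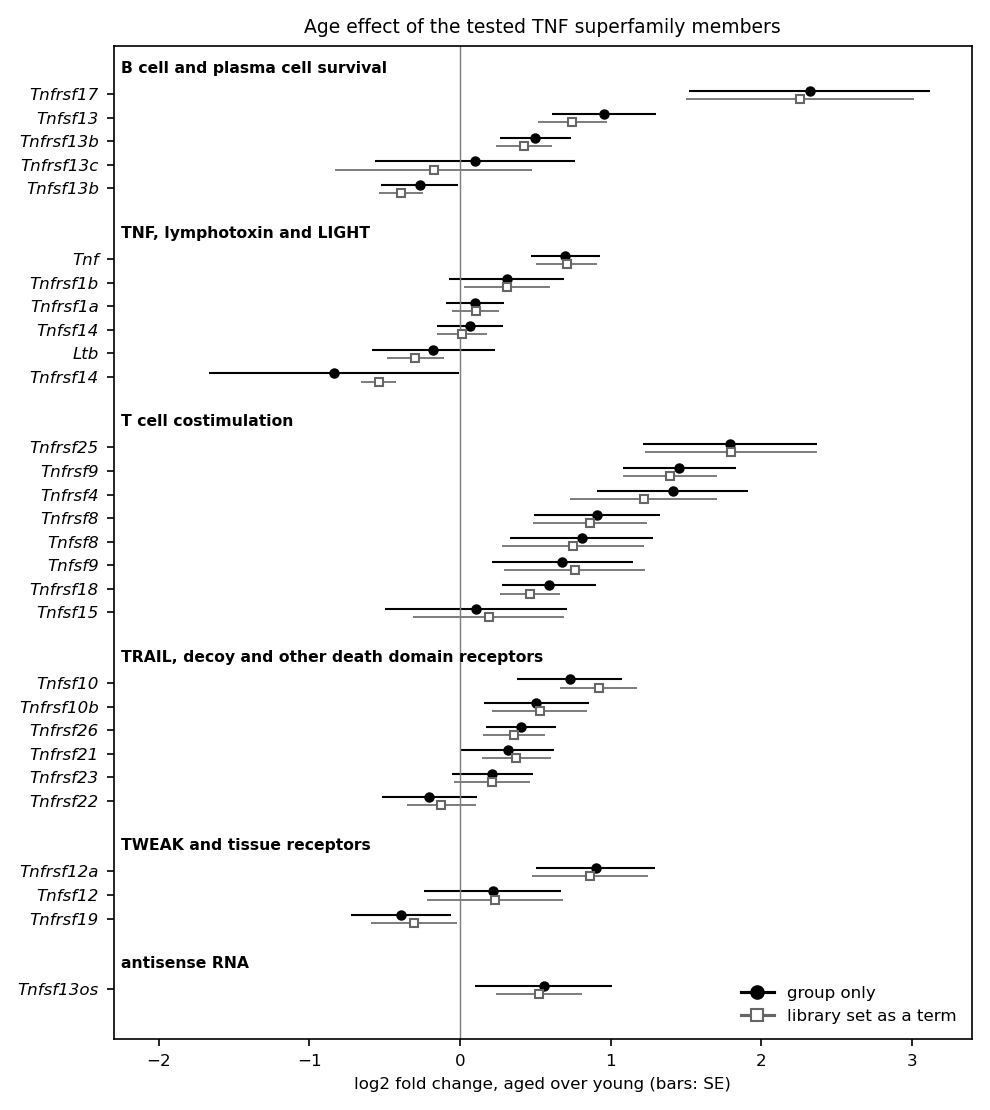
Log2 fold change, aged over young, of the 29 tested members (x axis), grouped by role on the y axis, with the group-only fit as filled circles, the fit with the library set as a term as open squares, and bars of 1 SE. Tnfrsf17, Tnfrsf25, Tnfrsf9 and Tnfrsf4 lie farthest above 0, between 1.41 and 2.32 in the group-only fit, and Tnfrsf14 lies farthest below 0, at −0.84 with the widest SE of its group.

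Levels per length spanned a wide range. In TPM, the authors' values scaled by gene length and library, Tnfrsf14 had the highest mean level, at 95.3 TPM in aged and 181 TPM in young libraries, with 4.26 to 176 TPM in aged and 6.19 to 254 TPM in young libraries. Tnfrsf1a, the widely expressed TNF receptor with a death domain, followed at 71.7 TPM in aged and 59.9 TPM in young libraries. Next came Tnfrsf13b at 36.8 TPM in aged and 29.4 TPM in young libraries, Ltb at 31.9 TPM in aged and 33.3 TPM in young libraries, Tnfrsf1b at 34.0 TPM in aged and 23.9 TPM in young libraries and Tnfrsf21 at 33.4 TPM in aged and 24.1 TPM in young libraries. These neighbours in the order differed by less than the spread between libraries. Ligands were led by Ltb, Tnfsf13 (21.9 TPM in aged, 11.4 TPM in young) and Tnfsf14 (16.7 TPM in aged, 15.4 TPM in young). Tnfsf4, Tnfsf18, Tnfsf15 and Lta were the lowest members, with group means of 0.304 TPM or less.

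The ligand and receptors of plasma cell survival were compared first. Tnfsf13 encodes APRIL, which binds Tnfrsf17 (BCMA), a survival receptor of marrow plasma cells, and Tnfrsf13b (TACI), a receptor of B cells and plasma cells. Tnfsf13b encodes BAFF, which binds Tnfrsf13b and Tnfrsf13c (the BAFF receptor) and keeps maturing B cells alive. Tnfrsf17 had CPM of 0.518, 3.56, 4.72, 0.571 and 1.17 in aged 1 to 5, against 0.228, 0.412, 0.252 and 0.815 in young 1 to 4. Aged 2 and aged 3 were high, aged 1 and aged 4 lay below young 4, and so the groups overlapped. These levels rest on few counts, 11 to 80 per aged library and 6 to 12 per young library. The fitted log2 fold change came to 2.32 (SE 0.80; edgeR adjusted p = 0.404), and to 2.26 (SE 0.76, edgeR adjusted p = 0.143) with the library set as a term. Within the 6 libraries all 3 aged libraries were above all 3 young ones.

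Tnfsf13 had 25.2, 13.8, 29.4, 48.5 and 17.4 CPM in aged 1 to 5, against 12.5, 12.6, 13.4 and 16.9 CPM in young 1 to 4. Only aged 2 lay below the highest young library, young 4, so that the groups overlapped by 1 library. The log2 fold change was 0.96 (SE 0.35, edgeR adjusted p = 0.433). Tnfsf13b went the other way, with 13.1, 14.0, 19.2, 28.0 and 15.9 CPM in aged 1 to 5 and 20.3, 17.9, 20.9 and 27.8 CPM in young 1 to 4. Aged 4 and young 4 were the highest of their groups, and within the 6 libraries every aged library was below every young one. Its log2 fold change was −0.27 (SE 0.26, edgeR adjusted p = 0.972), and −0.39 (SE 0.15, edgeR adjusted p = 0.186) with the library set as a term.

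Set against each other within a library, where library scaling has no part, the estimated counts of Tnfsf13 and Tnfsf13b separated the ages. The ratio of Tnfsf13 to Tnfsf13b counts was 1.92, 0.990, 1.53, 1.73 and 1.10 in aged 1 to 5, against 0.616, 0.702, 0.640 and 0.609 in young 1 to 4. Every aged library lay above every young library, in both library sets, with means of 1.45 ± 0.400 in aged (SD, n = 5) and 0.642 ± 0.0421 in young libraries (SD, n = 4). This ratio was chosen after its values were seen, as 1 of 6 ratios computed and the only one of them without overlap, and is given without a test. Over this denominator the separation was not particular to Tnfsf13. Of the 28 other tested members, 6, Tnfsf13 among them, had a ratio to Tnfsf13b that was higher in every aged library. The same held for 6.15% of all other tested genes. Tnfsf13 shares exon sequence with the readthrough gene Tnfsfm13 (983 of its 1637 annotated exonic bases) and, on the opposite strand, with Tnfsf13os (13.5%). How reads were split among these genes, and whether strand was used, is not given in the sources used here. The antisense RNA itself was at 2.58 to 5.66 CPM in aged and 1.29 to 5.16 CPM in young libraries, and its values are uncertain for the same reason.

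**Figure D2:**
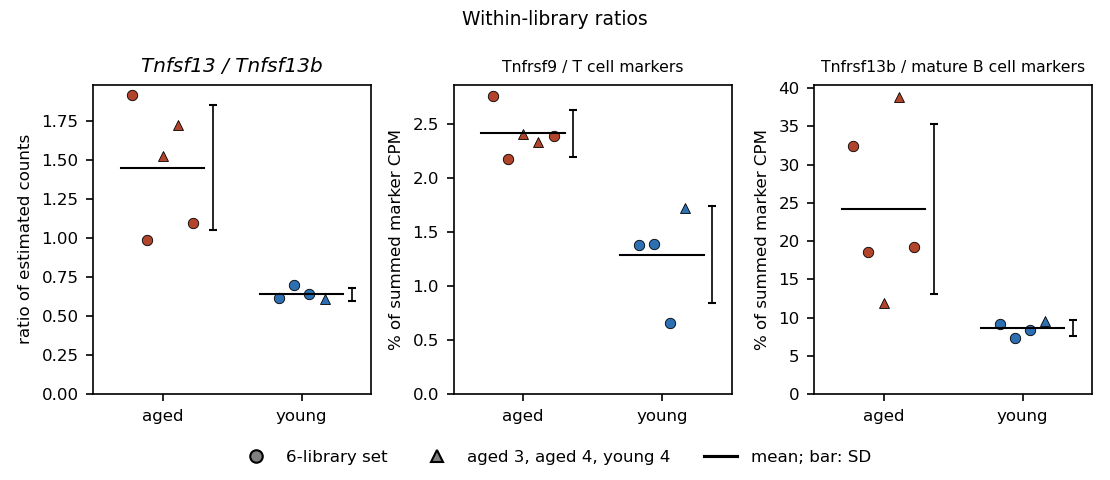
Ratio of estimated counts of Tnfsf13 to Tnfsf13b (left), and CPM of Tnfrsf9 and of Tnfrsf13b as a percentage of the summed CPM of T cell and mature B cell markers (middle and right), in each library, with aged left of young and triangles for aged 3, aged 4 and young 4. Lines are means and bars SD, and in all 3 panels every aged library lies above every young library.

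Tnfrsf13b had 29.9, 57.5, 68.3, 55.4 and 45.0 CPM in aged 1 to 5, against 38.1, 32.2, 34.5 and 40.0 CPM in young 1 to 4. Aged 1 was the lowest library of all, while the other 4 aged libraries lay above every young one. Its log2 fold change was 0.50 (SE 0.24, edgeR adjusted p = 0.603). Tnfrsf13c did not follow a single direction, with 1.34, 11.2, 29.2, 4.47 and 8.63 CPM in aged 1 to 5 and 8.97, 12.1, 9.45 and 10.2 CPM in young 1 to 4. Aged 3 was far above and aged 1 far below the narrow young range, and the fitted log2 fold change of 0.10 (SE 0.66) turned to −0.18 with the library set as a term.

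Markers of plasma cells and B cells, which carry these receptors, also differed between the libraries. Plasma cell markers, 14 of 14 tested, had 12 members above 0 and summed to 792 to 2879 CPM in aged and 1106 to 1466 CPM in young libraries, with aged 1 the lowest and aged 3 the highest. Mature B cell markers, 12 of 12 tested, had 11 members below 0 and summed to 92.2 to 575 CPM in aged and 413 to 440 CPM in young libraries, again with aged 1 the lowest and aged 3 the highest. Tnfrsf13b amounted to 2.37% to 3.77% of the plasma cell marker sum in aged and 2.34% to 3.45% in young libraries, ranges that overlap. Against the mature B cell marker sum it was 11.9% to 38.9% in aged and 7.31% to 9.61% in young libraries, without overlap. As a share of this sum, 8 of 29 tested members and 4.62% of all tested genes were higher in every aged library. Tnfrsf17 was 0.0319% to 0.174% of the plasma cell marker sum in aged and 0.0206% to 0.0556% in young libraries, with overlap only through aged 4. The part of cell numbers in the receptor values was not tested.

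TNF, the inflammatory cytokine that names the family, was one of the 2 members without overlap between the ages in CPM. Tnf had 12.4, 9.34, 6.93, 9.56 and 7.98 CPM in aged 1 to 5, against 5.40, 5.90, 5.00 and 6.45 CPM in young 1 to 4. Every aged library was above every young library in CPM, with aged 3 closest to young 4. In TPM the ages overlapped, with Tnf at 2.85 TPM in aged 3 and 2.28 to 4.8 TPM in young libraries. Means were 9.24 ± 2.06 CPM in aged (SD, n = 5) and 5.69 ± 0.630 CPM in young libraries (SD, n = 4), and the log2 fold change was 0.70 (SE 0.23, edgeR adjusted p = 0.385). Over all 9 libraries 2 members were higher without overlap in CPM and 0 lower, against 1.67% and 2.76% of all tested genes. With the library set as a term the value was 0.71 (SE 0.20, edgeR adjusted p = 0.101), within the 6 libraries 0.87 (edgeR adjusted p = 0.0753), within the 3 that stood apart 0.41 without a test, and 0.55 between aged 5 alone and young 1 to 3, all of which carried Y-linked transcripts. Monocyte and macrophage markers, 12 of 12 tested with 10 above 0, summed to 1913 to 2197 CPM in aged and 1309 to 1443 CPM in young libraries. As a share of that sum, Tnf was 0.325% to 0.589% in aged and 0.349% to 0.451% in young libraries, and the groups overlapped. The part of monocyte numbers in the Tnf values was not tested.

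**Figure D3:**
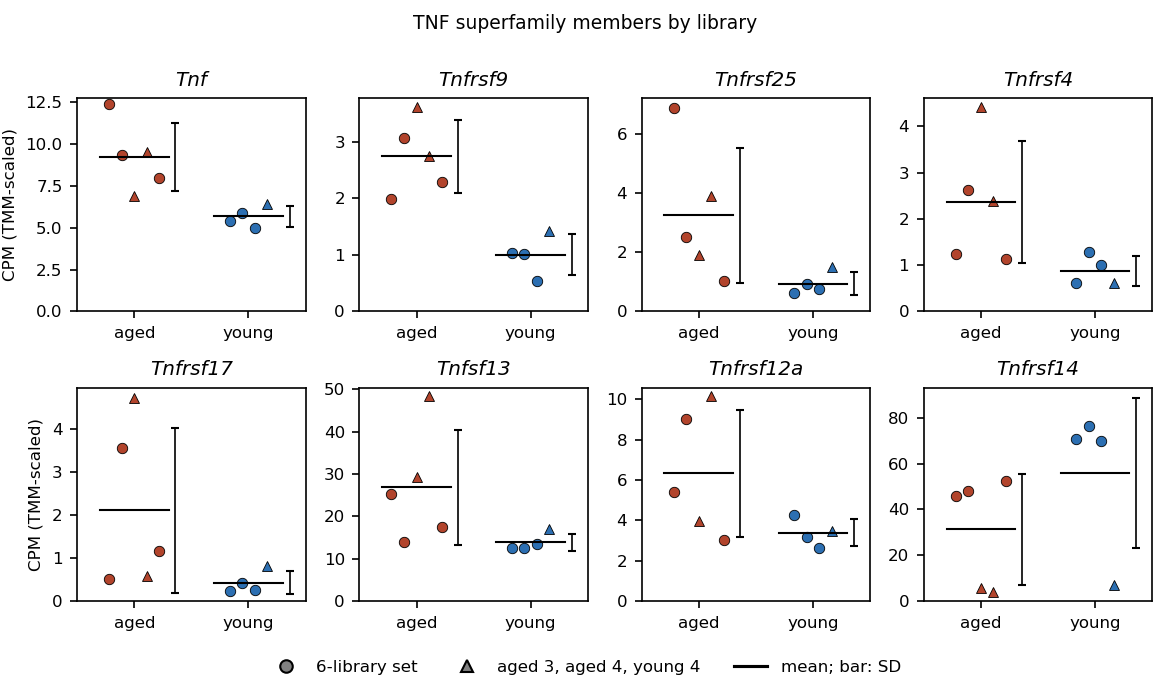
CPM of 8 members (y axes, each from 0) in each library, with aged left of young, circles for the 6-library set and triangles for aged 3, aged 4 and young 4. Lines are means and bars SD. Tnf and Tnfrsf9 show no overlap between the ages, whereas the values of Tnfrsf14 are split by library set, from 4.15 to 6.86 CPM in the triangles and from 46.0 to 76.4 CPM in the circles.

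The receptors of TNF were abundant and overlapped between the ages. Tnfrsf1a had 157, 117, 93.7, 125 and 128 CPM in aged 1 to 5, against 109, 103, 112 and 139 CPM in young 1 to 4. Tnfrsf1b, the TNF receptor of immune cells without a death domain, had 166, 122, 30.9, 81.1 and 109 CPM in aged 1 to 5, against 83.2, 84.0, 88.7 and 72.4 CPM in young 1 to 4. Within the 6 libraries all aged values of both receptors were above all young values, by 0.32 for Tnfrsf1a (edgeR adjusted p = 0.167) and 0.64 for Tnfrsf1b (edgeR adjusted p = 0.0802) on the log2 scale. Among the 3 libraries that stood apart the signs turned, to −0.30 and −0.33, with 1 young library and no test. The test of that difference between the sets (age effect in the 3 minus age effect in the 6, edgeR interaction) gave −0.66 (SE 0.28, adjusted p = 0.925) for Tnfrsf1a. It called 0 of 29 members, against 0.0121% of all genes, and 1 member, Tnfrsf1a, had an unadjusted p under 0.05, against 5.21% of all genes. Without aged 4 the difference for Tnfrsf1b was −1.86, and it then rests on aged 3 and young 4 alone.

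Tnfrsf14 encodes HVEM, a receptor of T cells and other blood cells that binds LIGHT, the product of Tnfsf14. It had 46.0, 48.0, 5.76, 4.15 and 52.5 CPM in aged 1 to 5, against 70.9, 76.4, 69.7 and 6.86 CPM in young 1 to 4. Both ages held low libraries, and these were the 3 that stood apart in ribosomal protein share, whose part in these values was not tested. Within each set every aged library was below every young library, with log2 fold changes of −0.56 in the 6 libraries (edgeR adjusted p = 0.0694) and −0.41 in the 3. With the set as a term it was −0.54 (SE 0.12), and its edgeR adjusted p of 0.05004 was the smallest of any member in that fit and missed the threshold of 0.05. That fit called 0 of 29 members and 1.92% of all tested genes, and at an unadjusted p under 0.05 it had 10 members higher and 2 lower, against 8.59% and 10.2% of all genes.

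Its ligand Tnfsf14 was at 19.4 to 32.7 CPM in aged and 20.6 to 31.2 CPM in young libraries, with a log2 fold change of 0.07 (SE 0.22). Ltb, a subunit of the lymphotoxin heterotrimer that shapes lymphoid tissue, was at 16.8 to 53.6 CPM in aged and 23.1 to 66.5 CPM in young libraries, highest in aged 4 and young 4 of their groups. Its log2 fold change was −0.18 (SE 0.41). Lta, the other lymphotoxin subunit, had 0 to 18 counts per aged library and 2 to 10 per young library and was not tested. Tnf lies between Ltb and Lta on chromosome 17 in GENCODE M21, and only Tnf of the 3 was without overlap in CPM.

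Costimulatory receptors and ligands of T cells, as grouped here, were higher in aged bone on average. All 8 tested members of this group were above 0, against 53.5% of all tested genes, with a median log2 fold change of 0.86. Tnfrsf14, also a receptor of T cells, and its ligand Tnfsf14 were grouped with TNF and lymphotoxin instead. Their log2 fold changes were −0.84 and 0.07. The ligand Tnfsf15 turned below 0 with limma-voom, with the replicate numbers as a block, within the 3 libraries that stood apart, and without aged 2 or young 4. The ligand Tnfsf9 came to −0.0013 for aged 5 alone against young 1 to 3. Tnfrsf9, a receptor induced on activated T cells and NK cells, had 1.98, 3.07, 3.62, 2.75 and 2.30 CPM in aged 1 to 5, against 1.03, 1.01, 0.546 and 1.43 CPM in young 1 to 4. In CPM no aged library overlapped a young one, on 46 to 69 counts per aged and 13 to 27 per young library. In TPM the ages overlapped, with Tnfrsf9 at 1.16 TPM in aged 4 and 1.28 TPM in young 1. Means were 2.74 ± 0.641 CPM in aged (SD, n = 5) and 1.00 ± 0.360 CPM in young libraries (SD, n = 4). The log2 fold change of 1.46 (SE 0.38) had the smallest edgeR adjusted p of the family, 0.297. The value was 1.40 (SE 0.31, edgeR adjusted p = 0.0580) with the library set as a term, 1.51 within the 6 libraries (edgeR adjusted p = 0.0753) and 1.40 between aged 5 alone and young 1 to 3, while DESeq2 gave an adjusted p of 0.00789. Tnfsf9, its ligand, was at 1.77, 1.47, 0.858, 2.44 and 1.13 CPM in aged 1 to 5 and 0.798, 1.33, 1.26 and 0.407 CPM in young 1 to 4. The ligand's groups overlapped, with a log2 fold change of 0.68 (SE 0.47, edgeR adjusted p = 0.855), and of 2.04 within the 3 libraries that stood apart.

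T cell markers, 14 of 14 tested with 13 above 0, were also higher on average in aged bone, at 71.8 to 150 CPM in sum in aged and 72.2 to 82.6 CPM in young libraries. Aged 1 had the lowest sum of all. Tnfrsf9 was 2.76%, 2.18%, 2.41%, 2.33% and 2.39% of that sum in aged 1 to 5, against 1.39%, 1.40%, 0.662% and 1.73% in young 1 to 4. The share was higher in every aged library, as it was for 0.271% of all tested genes. This and the share of Tnfrsf13b were the 2 without overlap among 11 member-to-marker shares computed, which were chosen after the values of the members were seen. NK cell markers, 10 of 10 tested with 9 above 0, summed to 68.2 to 198 CPM in aged and 57.3 to 128 CPM in young libraries, and their part in the Tnfrsf9 values was not tested.

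The other receptors of this group varied more between animals. Tnfrsf25, the death domain receptor of T cells for the ligand Tnfsf15, had 6.90, 2.53, 1.90, 3.89 and 1.02 CPM in aged 1 to 5, against 0.608, 0.915, 0.756 and 1.49 CPM in young 1 to 4. Aged 1 was the highest and aged 5 lay below young 4. Its log2 fold change was 1.79 (SE 0.58, edgeR adjusted p = 0.374), and 0.41 between aged 5 alone and young 1 to 3. Tnfrsf4, known as OX40, had 1.25, 2.62, 4.41, 2.39 and 1.13 CPM in aged 1 to 5, against 0.608, 1.28, 1.01 and 0.611 CPM in young 1 to 4. Aged 1 and aged 5 lay just below young 2, and the log2 fold change was 1.41 (SE 0.50, edgeR adjusted p = 0.418), or 0.23 for aged 5 alone against young 1 to 3 and 2.53 within the 3 libraries that stood apart. As shares of the T cell marker sum, neither receptor separated the ages.

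Tnfrsf8 (CD30) was at 0.942 to 2.33 CPM in aged and 0.630 to 1.09 CPM in young libraries. Tnfrsf18 (GITR), a receptor abundant on regulatory T cells, was at 5.35 to 11.7 CPM in aged and 3.86 to 6.38 CPM in young libraries. Both overlapped between the ages and had log2 fold changes of 0.91 (SE 0.42) and 0.59 (SE 0.31). Tnfsf8, the ligand of Tnfrsf8, was at 1.19 to 5.27 CPM in aged and 1.39 to 1.88 CPM in young libraries. Tnfsf15, a ligand made by endothelial and myeloid cells, was at 0.820, 1.60, 0.797, 0.104 and 1.02 CPM in aged 1 to 5 and 0.875, 0.961, 0.840 and 0.543 CPM in young 1 to 4. Only a few reads came from Tnfsf4, the ligand of Tnfrsf4, with counts of 5, 8, 0, 6 and 4 for aged 1 to 5 and 3, 1, 0 and 0 for young 1 to 4. Tnfsf18, the ligand of Tnfrsf18, had 0 to 22 counts per aged and 0 to 8 per young library, and neither was tested. In GENCODE M21 the 5 receptors Tnfrsf4, Tnfrsf8, Tnfrsf9, Tnfrsf18 and Tnfrsf25 lie on chromosome 4, which holds 9 members in all, and Tnfrsf4 and Tnfrsf18 are direct neighbours. Part of Tnfrsf18 (27.2% of its exonic bases) overlaps an antisense gene, so its counts are uncertain. Genes on the opposite strand also overlap Tnfsf9 (14.9% of its exonic bases), Tnfrsf23 (4.14%) and Tnfrsf26 (3.33%), whose counts share this limit.

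**Figure D4:**
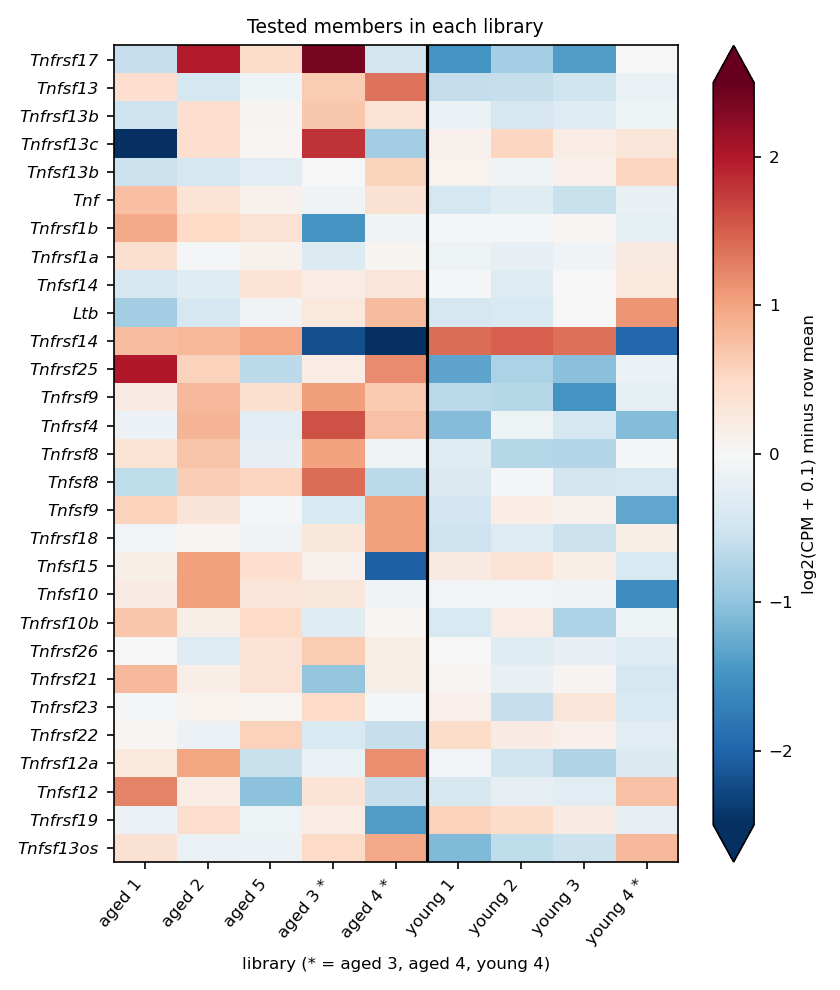
Log2(CPM + 0.1) of each of the 29 tested members minus its mean over the 9 libraries, as colour from −2.5 to 2.5, with the aged libraries left of the line and young libraries right of it. Tnfrsf14 is low in the 3 starred libraries of both ages, Tnfrsf13c is lowest in aged 1, and Tnf and Tnfrsf9 are higher in all 5 aged libraries than in any young library.

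The TRAIL branch, which can start apoptosis, was grouped with Tnfrsf21, Tnfrsf22, Tnfrsf23 and Tnfrsf26. The death domain receptors Tnfrsf25 and Tnfrsf1a were placed in other groups. Their unadjusted edgeR p-values in the group-only fit were 0.0108 and 0.607. Of the 6 tested members of the TRAIL group, 0 were without overlap over the 9 libraries, against 1.67% of all tested genes higher and 2.76% lower. In the group-only fit 0 of these 6 had an unadjusted p under 0.05, against 4.15% of all genes higher and 4.64% lower. Tnfsf10 (TRAIL) was at 9.35 to 20.3 CPM in aged and 3.33 to 9.47 CPM in young libraries, overlapping only through aged 4. Its log2 fold change was 0.73 (SE 0.35, edgeR adjusted p = 0.624), and 0.92 (SE 0.26, edgeR adjusted p = 0.0940) with the library set as a term. It was 0.65 within the 6 libraries, which did not overlap (edgeR adjusted p = 0.158), and 1.75 within the 3, without a test. Its death domain receptor Tnfrsf10b was at 1.65 to 3.41 CPM in aged and 1.18 to 2.38 CPM in young libraries. Tnfrsf22 and Tnfrsf23, decoy receptors for TRAIL in mice, were at 2.29 to 5.20 and 4.57 to 6.62 CPM in aged and at 2.85 to 4.79 and 3.16 to 5.84 CPM in young libraries. Tnfrsf22, Tnfrsf23 and Tnfrsf26 are neighbours on chromosome 7, and Tnfrsf22 shares 17.3% of its 50-base transcript stretches with Tnfrsf23, so that reads of these copies may have been split. Tnfrsf26 was at 8.05 to 15.8 CPM in aged and 8.08 to 10.2 CPM in young libraries. Tnfrsf21, a death domain receptor also called DR6, was at 42.4 to 147 CPM in aged and 62.4 to 88.2 CPM in young libraries, with the lowest level in aged 3 and the highest in aged 1. Within the 6 libraries the ages did not overlap for Tnfrsf21 (log2 fold change 0.49, edgeR adjusted p = 0.142).

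The remaining members act mostly in stromal and injured tissue. Tnfrsf12a encodes the receptor Fn14, which is induced in injured tissue and binds TWEAK, the product of Tnfsf12. It had 5.39, 9.03, 3.98, 10.2 and 3.01 CPM in aged 1 to 5, against 4.26, 3.16, 2.65 and 3.46 CPM in young 1 to 4. Aged 2 and aged 4 were high, aged 3 and aged 5 lay within the young range, and the log2 fold change was 0.90 (SE 0.39, edgeR adjusted p = 0.545). It turned to −0.17 for aged 5 alone against young 1 to 3. Tnfsf12 had 21.6, 10.3, 11.5, 6.02 and 4.41 CPM in aged 1 to 5, against 6.81, 7.83, 7.39 and 15.1 CPM in young 1 to 4. The high values were aged 1 and young 4, and without aged 1 the log2 fold change of 0.22 turned to −0.20. Tnfsf12 shares 48.3% of its exonic bases with the readthrough gene Tnfsfm13. Tnfrsf19 (TROY), a receptor of stromal and epithelial cells, was at 6.18 to 22.1 CPM in aged and 14.3 to 24.6 CPM in young libraries. Stromal and endothelial markers, 12 of 12 tested with 5 above 0, summed to 984 to 1470 CPM in aged and 1664 to 1891 CPM in young libraries.

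Leaving aged 3, aged 4 and young 4 aside changed how many members separated the ages. Aged 1 and aged 2 still differed from the young libraries in Xist and Y-linked counts, so age and sex are not separated there. Within the 6 libraries (aged 1, 2 and 5 against young 1 to 3), 12 of 29 members were higher without overlap and 2, Tnfsf13b and Tnfrsf14, lower, against 13.8% and 16.6% of the genes tested there. No member passed edgeR there (smallest adjusted p 0.0694), while 2 genes, 0.012% of all, did. At an unadjusted p under 0.05 there were 12 members higher and 2 lower, against 12.1% and 11.9% of all genes. Without young 4 alone, 8 members were higher and 1 lower, against 5.51% and 7.49% of all tested genes. Young 4 thus decided the overlap of 7 members. The 3 libraries that stood apart gave a median of 0.64 over the members, and aged 5 alone against young 1 to 3 gave 0.36, each with a single library on 1 side and no test.

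Genes of the same superfamily under other symbols, 13 in the list, had 10 tested members with 6 above 0 and 4 below, where 53.5% of all tested genes were above 0. With the library set as a term edgeR called 1 of them, against 1.92% of all genes. That term does not separate age from sex, here or for the genes called further below. Fasl, the ligand that starts apoptosis through Fas, was at 1.47, 2.71, 3.00, 2.34 and 1.51 CPM in aged 1 to 5, against 0.418, 0.229, 0.630 and 0.475 CPM in young 1 to 4. It rose with the library set as a term, by 2.23 on the log2 scale (edgeR adjusted p = 0.0405), and had an edgeR adjusted p of 0.255 without it. Every aged library was at more than any young library. Its receptor Fas was at 9.84 to 17.8 CPM in aged and 8.96 to 11.2 CPM in young libraries (log2 fold change 0.23, SE 0.24). Ltbr, the lymphotoxin beta receptor, was at 39.1 ± 8.41 CPM in aged (SD, n = 5) and 27.8 ± 2.93 CPM in young libraries (SD, n = 4), with overlap only through aged 3. Eda2r, a receptor for ectodysplasin, was at 3.07 ± 1.68 CPM in aged and 1.18 ± 0.280 CPM in young libraries, and Edaradd, an adaptor of that branch, at 2.10 ± 1.23 CPM in aged and 4.84 ± 1.99 CPM in young libraries (SD, n = 5 and 4).

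Downstream of the receptors, 28 adaptors and kinases were all tested, with 18 above 0 and 10 below, where 53.5% of all tested genes were above 0. Their median log2 fold change was 0.08. In the group-only fit edgeR called 0 of them and 0% of all genes. With the library set as a term it called 1, Traf4, against 1.92% of all genes. Traf4, a TRAF adaptor made mostly in non-blood tissues, was at 7.76, 13.4, 15.9, 10.2 and 15.9 CPM in aged 1 to 5, against 24.6, 29.3, 28.1 and 27.0 CPM in young 1 to 4. With the library set as a term it fell by 1.12 (log2; edgeR adjusted p = 0.0435), and no aged library reached a young one. Traf1, an adaptor whose gene is itself a target of NF-kappa-B, was at 21.8, 22.8, 4.29, 5.92 and 7.80 CPM in aged 1 to 5, against 4.75, 6.13, 4.79 and 3.87 CPM in young 1 to 4. Aged 1 and aged 2 were high and the others close to the young range (log2 fold change 1.36, SE 0.52, edgeR adjusted p = 0.466).

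Of 25 NF-kappa-B subunits, inhibitors and targets, 24 were tested, with 20 above 0, 4 below and a median log2 fold change of 0.56. Without the library set term edgeR called 0 of them, with 6 higher and 1 lower at an unadjusted p under 0.05, against 4.15% and 4.64% of all genes. With the term it called 2 higher and 1 lower, against 1.92% of all genes in either direction. Bcl3, a nuclear partner of NF-kappa-B subunits, was at 39.6, 27.4, 18.3, 28.1 and 19.4 CPM in aged 1 to 5, against 9.62, 10.5, 13.4 and 12.0 CPM in young 1 to 4. With the library set as a term it rose by 1.23 (log2; edgeR adjusted p = 0.0435), without overlap between the ages. Ccl5, a chemokine of T and NK cells, rose by 1.49 (log2) in that fit (edgeR adjusted p = 0.0405), at 31.4 ± 11.9 CPM in aged (SD, n = 5) and 10.6 ± 5.13 CPM in young libraries (SD, n = 4). Bcl2l1, a survival gene abundant in erythroid cells and singled out here as the only one of the list called lower in that fit, was at 94.7 ± 43.0 CPM in aged (SD, n = 5) and 170 ± 81.5 CPM in young libraries (SD, n = 4; edgeR adjusted p = 0.0443). Erythroid markers, 12 of 12 tested and all below 0, summed to 7171 to 200370 CPM in aged and 68334 to 316375 CPM in young libraries, and their part in the Bcl2l1 values was not tested. Bcl2a1a and Bcl2a1d, survival genes of white blood cells with near-identical copies, were at 1.32 to 24.8 and 1.36 to 40.4 CPM in aged and at 1.14 to 2.58 and 0.915 to 3.46 CPM in young libraries, and are uncertain for that reason. Adam17, the protease that releases TNF from the cell surface, was at 54.6 to 130 CPM in aged and 36.1 to 64.3 CPM in young libraries (log2 fold change 0.53, SE 0.30). Of 8 genes of shedding and trafficking, 0 had an unadjusted p under 0.05, against 4.15% of all genes higher and 4.64% lower.

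**Figure D5:**
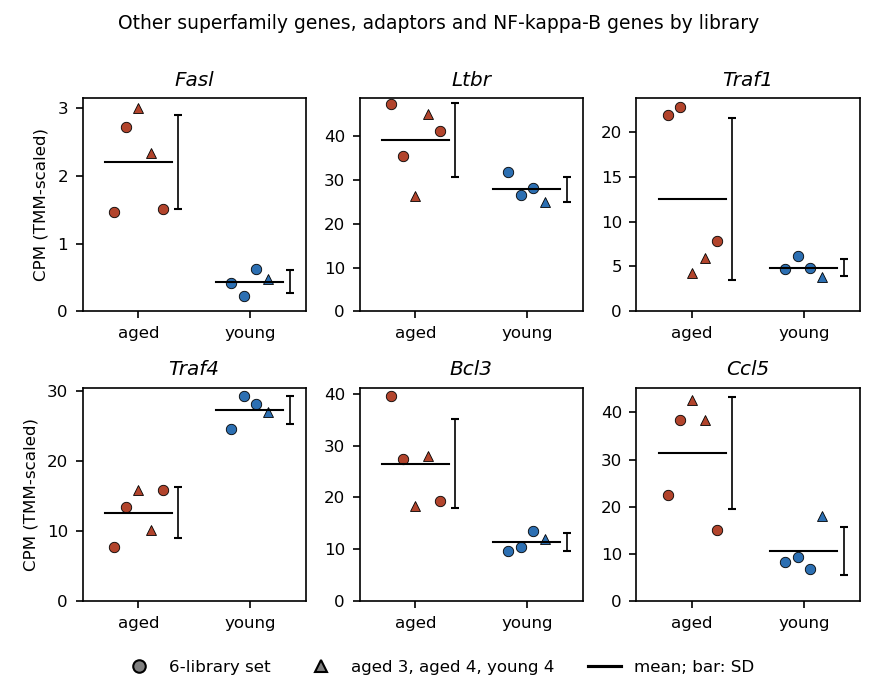
CPM of 6 genes of the wider pathway (y axes, each from 0) in each library, with aged left of young, circles for the 6-library set and triangles for aged 3, aged 4 and young 4, lines for means and bars for SD. Fasl and Bcl3 are higher and Traf4 is lower in every aged library than in any young library, whereas Traf1 is high in aged 1 and aged 2 only.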

How the data were processed

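The authors deposited estimated counts (expected counts) for 9 libraries, which were not scaled and were here rounded to integers. Bowtie 0.12.2 and mm8 are named, without a role, per the submitters' processing notes. The quantifier, annotation and strand setting are not given in the sources used here. TPM values are the authors', scaled by gene length. From the authors' own comparison, deposited as log2 fold changes, fold ratios and p-values with no settings given, only Tnfrsf9 and a count of adjusted p-values are quoted.

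The main test was edgeR 4.0.16 (R 4.3.3), quasi-likelihood, two-sided, fitted on age alone after TMM scaling and filterByExpr (minimum count 10, minimum total 15) and Benjamini-Hochberg adjustment over 16576 genes at 0.05. SE is the absolute log2 fold change over the square root of F. Alternatives used limma 3.58.1, DESeq2 1.42.0, other filters and scalings, and subsets of libraries. The members, gene lists, library set and alternatives were chosen with earlier results of these data known. Lists are described by counts and medians, without a list test. Members are given per library where groups did not overlap, where the unadjusted p was under 0.05 or the adjusted p under 0.05 with the set term, or as partners of these, and Tnfrsf13c, Tnfsf13b and Tnfrsf14 after their values were seen. Other lists name up to 4 genes with the smallest p, and beside them Fas, chosen as the receptor of Fasl, and Bcl2l1, named after its values were seen. The tests were tried on simulated counts. Promoters are RefSeq, GRCm38.p6, and gene order and exon overlap are from GENCODE M21 by gene ID, which matched 32 of 32 members. Every pair of libraries differed by more than sampling noise. Figures used matplotlib 3.10.9. Precision is set by 9 animals and, for members with few counts, by counting error.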

Additional observations from a re-analysis of the deposited data

Results flagged for a closer look

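Of 58 groups examined (29 members in each age), 6 held a library far from the others of its age, by Dixon's ratio in CPM, where chance gives about 1 in 20, or 2.9 groups. Young 4 accounted for 3 of them. Tnfrsf14 was at 6.86 CPM in young 4 and at 69.7 to 76.4 CPM in the other young libraries. Tnfsf10 was at 3.33 CPM in young 4 and at 9.36 to 9.47 CPM in the other young libraries. Tnfsf12 was at 15.1 CPM in young 4 and at 6.81 to 7.83 CPM in the other young libraries. Among aged libraries, Tnfrsf18 was at 11.7 CPM in aged 4 against 5.35 to 6.93 CPM in the others, Tnfrsf23 at 6.62 CPM in aged 3 against 4.57 to 5.03 CPM, and Tnfsf10 at 20.3 CPM in aged 2 against 9.35 to 12.3 CPM. Young 4, aged 3 and aged 4, which hold 5 of the 6 values, are the libraries with the higher ribosomal protein share. The part of that difference in these values was not tested.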

How the results depend on the processing

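No member was called by edgeR in the group-only fit, under any other scaling or filter, with the library set as a term, within the 6 libraries, or on leaving out any single library, whereas DESeq2 called 1, Tnfrsf9. The smallest adjusted p of a member over the edgeR and limma-voom alternatives lay between 0.05004 and 0.8293, and that of Tnfrsf9 itself between 0.0580 and 0.8293, the highest being without young 2. The count of all genes called was 0 in the main analysis, 319 with the library set as a term, 2 within the 6 libraries, 299 with DESeq2, 13 with the replicate block below, and 0 to 6 on leaving out each library, 6 being without aged 5. The median log2 fold change of the members stayed between 0.36 and 0.64 over all alternatives. The 2 members without overlap in CPM became 14 within the 6 libraries and 2 to 9 on leaving out each library. In the authors' TPM both of these members overlapped between the ages. The count of members whose age effect differed between the library sets was 0, and 0 to 1 on leaving out each library that could be left out. The 1 was Tnfrsf1b without aged 4, where the share of all genes called is not given here. It could not be computed without young 4. Of 29 members, 18 kept their sign in every alternative where they were fitted, while 11 turned in at least 1. Tnfrsf13c was at −0.18 with the set as a term, −0.52 within the 6 libraries, −0.58 with limma-voom, −0.56 with the replicate block and −0.25 for aged 5 alone against young 1 to 3. Among the 3 libraries that stood apart, Tnfrsf1b was at −0.33, Tnfrsf1a at −0.30, Tnfsf15 at −0.20, Tnfsf13os at −0.027 and Tnfsf12 at −0.72. For aged 5 alone against young 1 to 3, Tnfrsf22 was at 0.29, Tnfrsf12a at −0.17, Ltb at 0.14, Tnfsf9 at −0.0013 and Tnfsf12 at −0.74. Tnfsf15 was at −0.22 with limma-voom and −0.24 with the replicate block, and Tnfsf14 at −0.025 with the replicate block. On leaving out each library, values ranged from −0.67 to 0.39 for Tnfrsf13c, −0.23 to 0.39 for Tnfsf15, −0.20 to 0.55 for Tnfsf12, −0.021 to 0.17 for Tnfsf14 and −0.45 to 0.30 for Ltb. Without a test, 12 member values moved by more than the spread between replicates in the comparisons with a single library on 1 side, among them Tnf at 0.41, Tnfrsf4 at 2.53, Tnfsf9 at 2.04 and Tnfsf10 at 1.75 within the 3 libraries. The cause was not tested. The replicate block (aged 1 to 4 with young 1 to 4) called 0 members, with a smallest adjusted p of 0.186. Same-numbered libraries had correlations of deviations of 0.46, 0.55, −0.39 and 0.74. For aged 1, aged 2 and aged 4 the same-numbered young library gave the highest value, and for aged 3 it was young 4 (0.52). Aged 3 and aged 4 were positive only with young 4, which is of the same library set. These values cannot settle whether the numbers pair the samples. The log2 of the Tnfsf13 to Tnfsf13b ratio differed by 1.14 between the ages, and by 0.97 within the 6 libraries, 1.42 within the 3, 0.75 for aged 5 alone against young 1 to 3 and 1.02 to 1.26 on leaving out each library. Depth limits Tnfsf4, Lta, Tnfsf18, Tnfsf15, Tnfrsf8, Tnfsf9, Tnfrsf9, Tnfrsf4, Tnfrsf10b and Tnfrsf17, which had at most 80 counts in any library.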
